A study of Mus musculus with 30 samples.

Results

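Chromatin accessibility was described around 37 genes of the cell cycle machinery in mouse regulatory T cells (Treg) and conventional CD4+ T cells. A peak, a stretch of open chromatin called by the authors, was given to one of these genes when that gene was the nearest protein-coding gene and its body lay within 100 kb. This put 195 of the 69316 peaks of the 26-library table with the cell cycle genes, 125 of them inside the gene body. For 8 of the 195 peaks a second gene was equally near, as at the shared starts of Aurka and Cstf1, Mcm7 and Ap4m1, or Pcna and Cds2. Nearness does not show that a peak acts on that gene.

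Cells enter division when D-type cyclins with Cdk4 or Cdk6 phosphorylate the pocket proteins, of which Rb1 is the best known, and so free E2F transcription factors to switch on the genes of DNA replication. Cyclin E with Cdk2 completes that step, and inhibitors such as Cdkn1b (p27) hold it back. Genes of G2 and mitosis come later and are held silent in resting cells by repressor complexes at their promoters. Effector Treg are the activated, dividing Treg of tissues and inflamed sites, whereas central Treg circulate and mostly rest, and BATF, an AP-1 family factor, is known for its part in effector differentiation.

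The assay was ATAC-seq, in which a transposase cuts open DNA and the reads per peak measure accessibility. Cells were sorted fresh from lymph nodes and spleen, 2 libraries per group. Wild-type Treg (CD4+hCD2+) and conventional T cells (Tconv, CD4+hCD2-) came from Foxp3-IRES-hCD2 mice on C57BL6/J, in which human CD2 marks Foxp3-expressing cells, and BATFKO Treg from Foxp3-IRES-hCD2.Batf-/- mice. From the same Foxp3-IRES-hCD2 reporter came central Treg (cTreg, CD4+hCD2+CCR7hiCD62LhiCD44lo), effector Treg (eTreg, CD4+hCD2+CCR7loCD62Llo) and, with those gates on hCD2- cells, naive (Tnaive) and effector (Teff) conventional T cells. Treg with the point mutation R397W came from Foxp3R397W-IRES-hCD2/Foxp3-IRES-GFP mice and were set against Foxp3WT-IRES-hCD2/Foxp3-IRES-GFP controls. In both of these the sorted cells were CD4+hCD2+GFP-, from mice that also carried the GFP-marked Foxp3 allele. The last 4 groups (DKO, strain not labelled) were CD4+hCD2+ cells of genotype Foxp3KO-IRES-hCD2.Batf-/-, sorted as CD45.2+CD45.1- and GFP+Thy1.1+, with retroviruses named mock, Foxp3, BATF, or Foxp3 and BATF, so that the mock cells carry both knockouts too. The column names of these groups include the word vivo, and the cells carried a retrovirus when sorted, so they were not untouched cells. No ages are given, and nothing in the labels says that a group's 2 libraries came from separate animals. The tests below therefore weigh differences against the spread between 2 libraries, which may be only technical.

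The deposited tables name some libraries differently. A second table of 22 libraries shares 18 with the 26-library table, recognised by equal values at 4478 peaks of identical coordinates (at least 98% equal, against at most 3.35% for any other pairing), and names only 6 of the 18 alike. The eTreg, cTreg, Tnaive and Teff columns used here appear there as, in that order, R397W control Treg, R397W Treg, wild-type Treg and Foxp3KO, and the R397W pair used here appears there as cTreg and eTreg. Names here are those of the 26-library table. Under them the summed score of peaks at 6 T cell and Treg marker genes was 12600 to 13100 in eTreg and 12600 to 13000 in cTreg, against 8070 to 8080 in Tnaive and 9240 to 9350 in Teff, so the named Treg groups did not overlap the conventional groups. The second table's names for the eTreg and cTreg libraries are Treg too, so this sum cannot decide between them. At the strongest Foxp3 peak means were 372 in eTreg and 403 in cTreg, against 5.17 in Tnaive and 7.83 in Teff. Wild-type Treg were at 379 and Tconv at 9.27, so there the Tnaive libraries were like Tconv, not like wild-type Treg. At the weakest Foxp3 peak Tnaive (41.8) was above cTreg (25.1) and eTreg (7.88). Counts that rest on the names of the 26-library table are also given for the second table under its own names, where 178 peaks belonged to the 37 genes. Under those names most comparisons set other libraries against each other, so their counts are not repeats of the ones here. Only wild-type Treg, BATFKO Treg and Tconv are named alike in both, and the second table's Tnaive and Teff are not among the 18 shared.

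Promoters of 7 of these genes are shown first, 6 because their peaks carry the promoter results below (Cdk1, Plk1, Mki67, Cdkn1b, Top2a and E2f2), and that of Mcm6, whose promoter peak was not called, as an example of E2F matches. The sequences are from RefSeq on GRCm38.p6, and of the 37 genes 30 had at least 1 window (250 bases before to 50 after a start), 36 windows in all. Of each window 175 bases before the listed start are printed, except for E2f2, where the 133 bases of an internal start's window that lie inside its peak are printed. Capitals mark matches to 3 motifs searched on both strands, namely E2F (TTTCCCGC, TTTGGCGC, TTTCGCGC or TTTGCCGC), the cell cycle homology region CHR (TTTGAA or TTTAAA, the latter its own reverse complement) and the CCAAT box (CCAAT). Where matches touch or overlap, as in the Mcm6 line, the capitals run together, and the capitals that open the Top2a line are the end of a match that begins before the printed stretch.

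Cdk1, the mitotic kinase, chr10:69352913-69353087, minus strand: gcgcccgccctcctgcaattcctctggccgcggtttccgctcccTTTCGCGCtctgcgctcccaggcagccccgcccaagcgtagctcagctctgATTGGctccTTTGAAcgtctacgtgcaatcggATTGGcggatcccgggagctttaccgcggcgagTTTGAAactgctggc

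Plk1, a mitotic kinase, chr7:122159260-122159434, plus strand: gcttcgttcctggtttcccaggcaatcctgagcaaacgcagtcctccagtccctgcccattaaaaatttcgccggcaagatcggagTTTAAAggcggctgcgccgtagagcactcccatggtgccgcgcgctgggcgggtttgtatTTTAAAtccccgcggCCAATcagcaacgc

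Mki67, the proliferation antigen Ki-67, chr7:135716380-135716554, minus strand: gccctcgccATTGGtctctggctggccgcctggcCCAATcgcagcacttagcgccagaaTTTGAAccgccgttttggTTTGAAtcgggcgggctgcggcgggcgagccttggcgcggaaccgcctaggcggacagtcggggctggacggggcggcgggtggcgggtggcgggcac

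Cdkn1b, the CDK inhibitor p27, chr6:134920226-134920400, plus strand: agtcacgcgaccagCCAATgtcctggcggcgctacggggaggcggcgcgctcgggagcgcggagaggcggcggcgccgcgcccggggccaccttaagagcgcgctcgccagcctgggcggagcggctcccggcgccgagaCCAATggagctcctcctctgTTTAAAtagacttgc

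Top2a, the topoisomerase that untangles chromosomes, chr11:99024190-99024364, minus strand: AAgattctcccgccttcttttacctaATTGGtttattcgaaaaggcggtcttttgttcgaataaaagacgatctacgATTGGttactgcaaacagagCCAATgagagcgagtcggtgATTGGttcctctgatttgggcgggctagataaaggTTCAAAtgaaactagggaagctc

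Mcm6, a subunit of the replicative helicase, chr1:128359706-128359880, minus strand: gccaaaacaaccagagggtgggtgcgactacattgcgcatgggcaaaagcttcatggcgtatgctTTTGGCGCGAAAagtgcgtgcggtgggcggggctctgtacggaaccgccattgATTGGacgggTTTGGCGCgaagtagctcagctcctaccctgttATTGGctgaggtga

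E2f2, an activating E2F, internal start, chr4:136180532-136180664, plus strand: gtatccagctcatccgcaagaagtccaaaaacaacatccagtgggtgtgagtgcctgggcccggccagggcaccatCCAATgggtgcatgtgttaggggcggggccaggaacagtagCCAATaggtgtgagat

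An E2F match was found in 10 of the 36 windows (27.8%), against 2.26% of all 32851 windows in the RefSeq table, and in 4 of the 7 windows of the replication licensing genes, of which the Mcm6 line shows an example. A CHR match was in 15 of 36 (41.7%, against 27.6% of all), and in 7 of the 8 windows of the G2 and mitosis genes, as in the Cdk1, Plk1, Mki67 and Top2a lines. A CCAAT match was in 25 of 36 (69.4%, against 37.4%), including 8 of 8 windows of the G2 and mitosis genes and 7 of 7 of the licensing genes. AP-1 (TGANTCA), the motif class that BATF binds, was in 0 of 36 windows against 7.81% of all, and the forkhead motif TGTTTAC was in 2 of 36 (5.56% against 3.65%). A match describes letters in the window and is not a measured site.

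Values are the authors' normalised scores per peak and library, from 3716499 to 25462278 reads in peaks per library. Changes were tested only inside the groupings named below, because the R397W pair and the DKO groups were made by omniATAC-seq, which uses another lysis buffer and transposase, and because summed scores at 6 housekeeping genes ran from 3870 to 4280 in wild-type Treg but from 8800 to 12000 in the DKO mock libraries. A change is a log2 difference of score plus 1, fitted with limma in 1 model over all 69316 peaks and 13 groups, and a peak was called when its Benjamini-Hochberg adjusted p over all peaks was under 0.05. The typical (median) standard error (SE) of a change was 0.338. In bulk cells, fewer open cells and less accessibility per cell cannot be told apart. Summed scores at 5 myeloid marker genes were 1060 to 1110 in eTreg against 610 to 616 in cTreg, 1120 in Teff against 761 to 882 in Tnaive, and 1840 to 2130 against 958 to 1160 in DKO cells with both viruses and mock. At 6 CD8 and NK cell genes they were 1660 to 1740 in eTreg, 2700 to 2750 in cTreg, 2220 to 2240 in Teff and 4220 to 4320 in Tnaive. B cell markers gave 566 to 606 in eTreg and 566 to 702 in cTreg, 435 to 440 in Teff and 475 to 536 in Tnaive, and 785 to 824 with both viruses against 399 to 433 in mock, with no peak at Cd79a or Ms4a1, and of the myeloid list Csf1r had no peak. The part of such cells in the counts was not tested.

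The peaks were spread unevenly. The median gene had 3 peaks, as did the median of the 15718 protein-coding genes with a peak, and 12 of the 37 genes had a single peak. By contrast 6 genes held 100 of the 195 peaks (51.3%), namely the G1 kinase Cdk6 with 29, the cyclin genes Ccnd2 with 17 and Ccnd3 and Ccne1 with 13 each, E2f3 with 15 and Rb1 with 13. Promoter windows carried 30 of the peaks, at 27 genes. These were on the whole stronger and less variable, with a median score of 523 over the 26 libraries (lowest 45.9, highest 1660, at Cdkn2d) against 63.4 for the other 165 peaks (3.29 to 1510), and a median ratio of the highest to the lowest group mean of 2.46 against 4.18. That ratio is taken over all 13 groups and so mixes ATAC-seq and omniATAC-seq libraries. The other strong promoters were those of Pcna (1000), Cdkn1b (996), E2f7 (960), Aurka (883), Cdk4 (826) and Mcm5 (763).

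**Figure D1:**
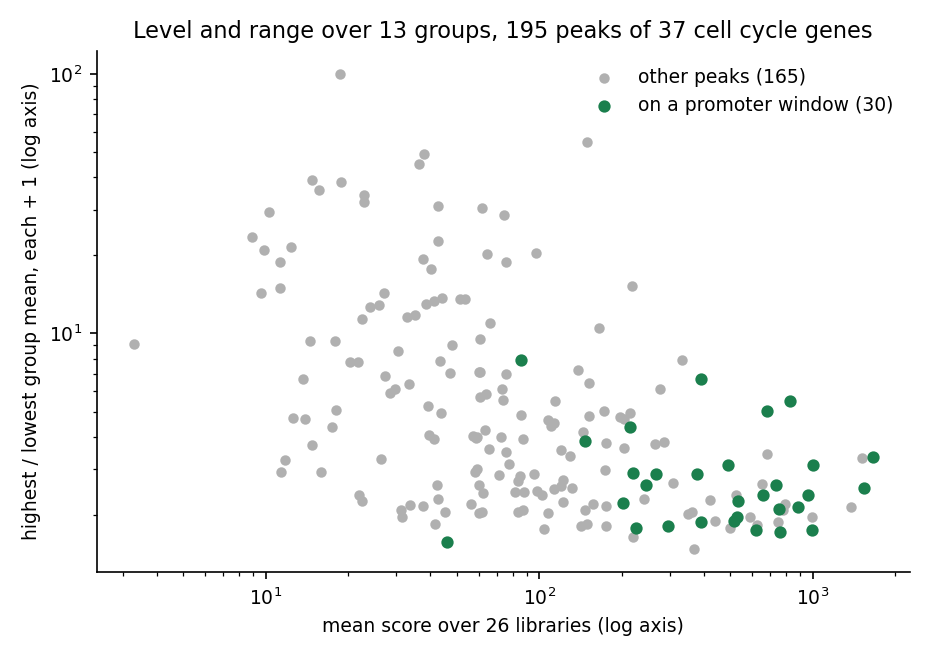
Mean score over 26 libraries (x, log axis) against the ratio of the highest to the lowest group mean, each plus 1 (y, log axis), for the 195 peaks. The 30 peaks on a promoter window (green) lie to the right and mostly low, while many of the 165 others (grey) are weaker and vary more between the 13 groups, which include both protocols.

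From central to effector Treg, accessibility around the cell cycle genes changed in both directions and mostly away from promoters. Of the 195 peaks 44 rose and 26 fell, which is 22.6% and 13.3%, against 19.7% and 17.4% of all peaks called higher and lower, and the median change was 0.08 against 0.03 over all peaks. These shares are near the background, so the count does not set these genes apart. By role, the cyclin D and G1 kinase genes had 17 rising and 11 falling of 62 peaks, the pocket proteins 9 and 1 of 26, the E2F genes 7 and 6 of 39, the CDK inhibitors 3 and 4 of 19, cyclin E and Cdk2 2 and 4 of 16, the licensing genes 1 and 0 of 10, and G2 and mitosis genes 5 and 0 of 23. Of the 17 rising and 11 falling, Cdk6 had 14 and 3, Ccnd2 2 and 2, and Ccnd3 1 and 6. For the counts of 0 lower, edgeR's quasi-likelihood test on recovered reads also called 0 lower among the G2 and mitosis peaks, and none of them fell at an unadjusted p under 0.05. The second table's own eTreg and cTreg are the libraries named R397W Treg and R397W control here. Set against each other there, they gave 10 calls, 1 higher and 9 lower, which is not a repeat of this comparison.

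The conventional pair, Teff against Tnaive, gave a similar count from separate libraries. Here 45 peaks rose and 23 fell (23.1% and 11.8%), against 20.7% and 19.6% of all peaks, with a median change of 0.15 against -0.01. The cyclin D and G1 kinase genes again had the most, 25 rising and 7 falling of 62 peaks, of which Cdk6 gave 22 and 0, Ccnd2 2 and 4 and Ccnd3 1 and 3, followed by the pocket proteins with 7 and 2 of 26 and the E2F genes with 5 and 4 of 39. Of the peaks that rose in Treg 31 of 44 (70.5%) also rose in the conventional pair (68.9% of its 45), and 14 fell in both (53.8% of 26 and 60.9% of 23). Matching shares over all peaks were not computed for this or the overlaps below, so none of them sets the cell cycle genes apart. The second table's Tnaive and Teff libraries are not among the 18 shared, and there this pair gave 11 calls, 1 higher and 10 lower. The bar plot of called peaks shows these shares beside the background for 10 comparisons.

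**Figure D2:**
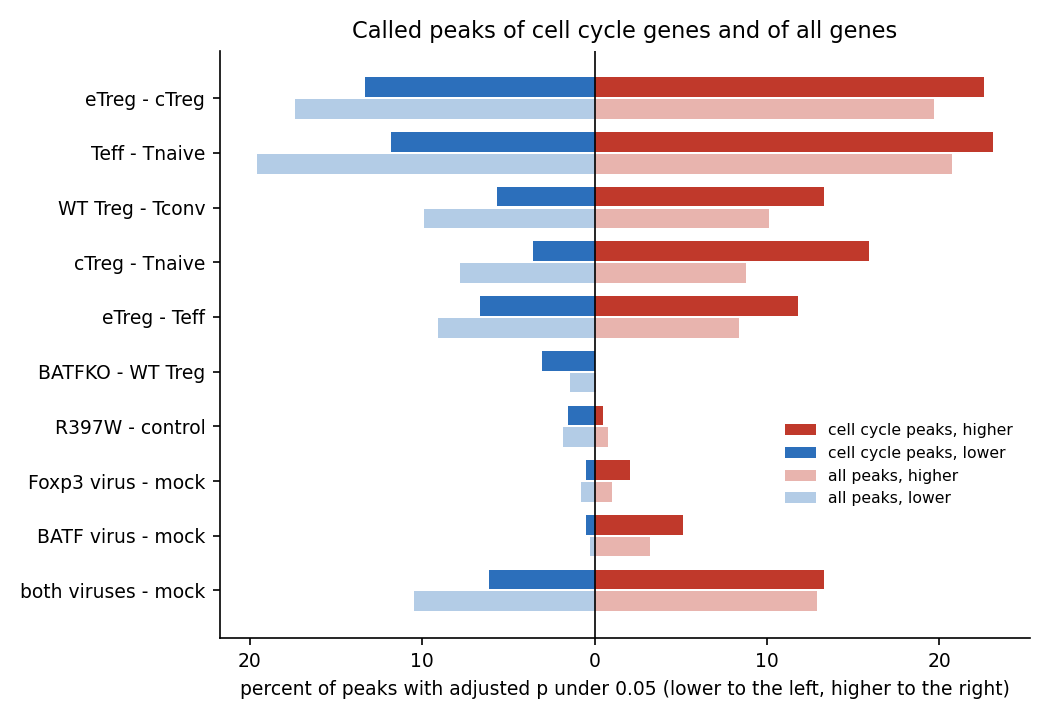
Percent of peaks called lower (left, blue) and higher (right, red) in each of 10 comparisons, for the 195 cell cycle peaks (dark bars) and all 69316 peaks (pale bars). The bars are longest for the steps from central to effector Treg and from naive to effector conventional cells, and shortest for the BATF knockout, R397W and the single viruses.

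Of the 30 promoter peaks 4 were called between cTreg and eTreg (13.3%, against 19.3% of promoter window peaks of all genes), so the count does not set these promoters apart. They were those of Cdk1, Plk1, Mki67 and Cdkn1b, while the promoter peaks of Aurka, Bub1, Ccnb1, Ccnb2 and Top2a were not called. At Cdk1 the score was 452 and 526 in the 2 cTreg libraries and 673 and 696 in eTreg, with 577 and 592 in Tnaive and 697 and 681 in Teff. Both effector Treg libraries were above both central ones, a rise of 0.49 (SE 0.14, limma adjusted p = 0.008) or 1.4-fold. At Plk1 it was 148 and 164 in cTreg, 230 and 240 in eTreg, 149 and 212 in Tnaive and 281 and 245 in Teff. The Plk1 promoter thus rose in both lineages, by 0.59 in Treg (SE 0.21, limma adjusted p = 0.024) and by 0.56 in conventional cells (SE 0.21, limma adjusted p = 0.032). The Mki67 promoter was at 428 and 429 in cTreg and 575 and 581 in eTreg, a rise of 0.43 (SE 0.17, limma adjusted p = 0.042).

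The promoter of the inhibitor gene Cdkn1b moved the other way. It was at 1080 and 1220 in cTreg and 859 and 829 in eTreg, a fall of 0.44 on the log2 scale (SE 0.17, limma adjusted p = 0.047). At Top2a the promoter was at 360 and 358 in Tnaive and 266 and 254 in Teff, and fell by 0.46 (SE 0.18, limma adjusted p = 0.041). These are small changes near the threshold. Direction was kept without any 1 of the libraries, but the calls at Mki67, Cdkn1b and Top2a were lost without any single library of their pair, those at Plk1 without any in Treg and without Tnaive 1, Teff 1 or Teff 2 in conventional cells, and that at Cdk1 without eTreg 2 or cTreg 1. The Mki67 call was also lost with edgeR (adjusted p = 0.054), the Cdkn1b call when a mean score of 20 was required (limma adjusted p = 0.054), and the Top2a call with edgeR (adjusted p = 0.067) and after quantile scaling (limma adjusted p = 0.057).

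The remaining 26 promoter peaks were not called between eTreg and cTreg, with changes from -0.2 to 0.43, a median of 0.06 and a median SE of 0.18. Among all genes 19.3% of the peaks on promoter windows were called in this comparison, against 39.8% of the others, and in the conventional pair 23.1% against 43%. Over all 10 comparisons 24 of the 30 promoter peaks and 62 of the 165 others were never called. The share over all peaks was not computed for the 10 together, so neither count sets these genes apart. The 15 genes without a call were Aurka, Bub1, Ccna2, Ccnb1, Ccnb2, Ccnd1, Cdk2, Cdk4, Cdkn2d, E2f1, Mcm2, Mcm4, Mcm5, Mcm7 and Pcna, most of them with 1 peak.

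Among the cyclin genes the largest changes lay in the flank of Ccnd2, which encodes the lymphocyte D-type cyclin. A peak 67.2 kb to the right of its body was at 1.78 and 0 in cTreg, 77.6 and 65.5 in eTreg, 2.55 and 6.48 in Tnaive and 23.5 and 24.5 in Teff. It was near empty in both resting groups and highest in eTreg, a fitted change of 5.44 (SE 0.53, limma adjusted p = 3.2e-09). With only 2 reads in cTreg that size depends on the 1 added to each score, and no fold is given. A peak 25.8 kb to the right went down instead, from 64 and 90.4 in cTreg to 5.54 and 7.02 in eTreg and from 71.5 and 104 in Tnaive to 17.4 and 10.8 in Teff. Its changes were -3.41 in Treg (limma adjusted p = 4.4e-09) and -2.57 in conventional cells (limma adjusted p = 4.6e-07). In Ccnd3, another D-type cyclin, a peak 31.1 kb downstream of the start fell in the same way, with 68.4 and 79.4 in cTreg, 17.7 and 14 in eTreg, 119 and 108 in Tnaive and 32.2 and 18.6 in Teff (-2.15 and -2.16).

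Called peaks of the E2F genes lay both in the flanks and inside the gene bodies. A peak 28 kb upstream of E2f7, which encodes a repressive E2F, at chr10:110717191-110717591, was at 0.889 and 2.2 in cTreg (3 reads), 162 and 139 in eTreg, 6.39 and 5.18 in Tnaive and 10.5 and 1.96 in Teff. Both eTreg libraries were far above the other 6, with a fitted change of 5.94 (SE 0.62, limma adjusted p = 1.1e-08), whose size again depends on the added 1. A peak 36.6 kb upstream of E2f3, an activating E2F, was at 6.22 and 9.92 in cTreg, 99.7 and 128 in eTreg, 1.28 and 3.89 in Tnaive and 25.3 and 27.4 in Teff, a Treg change of 3.68 (limma adjusted p = 2.4e-06). E2f8, the partner repressor of E2f7, had a strong peak 0.489 kb downstream of its start, at 418 and 516 in cTreg, 717 and 783 in eTreg, 355 and 407 in Tnaive and 765 and 675 in Teff, which rose by 0.69 and 0.92. A peak in the body of E2f2 fell, on average from 155 to 63.9 between cTreg and eTreg (-1.29), and from 197 to 88.7 between Tnaive and Teff (-1.14).

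Among the pocket protein genes the clearest rise was at Rbl2 (p130), whose product holds E2F targets silent in resting cells. The peak 3.92 kb into Rbl2 was at 38.2 and 29.8 in cTreg and 161 and 224 in eTreg, and at 39.6 and 32.4 in Tnaive and 218 and 195 in Teff. The groups did not overlap in either lineage, with changes of 2.46 (SE 0.32, limma adjusted p = 3.8e-07) and 2.49. A Rb1 peak 14.1 kb to the right of the body rose from 50.7 and 29.8 in cTreg to 97.5 and 102 in eTreg (1.34, SE 0.28, limma adjusted p = 0.00036). Upstream of Cdkn1b, a peak 3.12 kb from the start was at 265 and 303 in cTreg, 171 and 143 in eTreg, 331 and 329 in Tnaive and 164 and 179 in Teff, so that it fell with the promoter, by 0.86 in Treg and by 0.94 in conventional cells. At Cdkn2c (p18, an inhibitor of Cdk4 and Cdk6) a peak 7.71 kb downstream of the start rose instead (0.73 and 0.90), with 89.8 and 91.5 in cTreg, 168 and 135 in eTreg, 85.6 and 88.1 in Tnaive and 155 and 171 in Teff.

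Of the cyclin E genes, a Ccne1 peak 3.18 kb downstream of the start fell from 278 and 236 in Tnaive to 125 and 113 in Teff (-1.1, SE 0.21, limma adjusted p = 9.3e-05). Another, 12.9 kb downstream, fell from a mean of 427 in cTreg to 198 in eTreg (-1.1). The only licensing peak to rise in both lineages was 2.1 kb into Mcm6, with 42.7 and 63.9 in cTreg against 96.4 and 138 in eTreg (1.13) and 56.2 and 55.7 in Tnaive against 115 and 122 in Teff (1.07). Near Top2a a weak peak 33.1 kb downstream of the start, past the gene's end, was at 4.44 and 4.41 in cTreg, 26.6 and 39.8 in eTreg, 6.39 and 1.3 in Tnaive and 19.2 and 32.3 in Teff (2.63 and 2.65).

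The change from resting to effector cells differed between Treg and conventional cells at 14 peaks, 2 with a larger change in Treg and 12 with a smaller or more negative one, against 1.18% and 2.72% of all peaks. The Treg change was larger at the E2f7 peak 28 kb upstream (difference 6.16, SE 0.88, limma adjusted p = 5.2e-05) and at the Ccnd2 peak 67.2 kb to the right (3.16, limma adjusted p = 0.012). It was smaller at a Rbl2 peak 18.6 kb into the gene, which was at 9.78 and 14.3 in cTreg and 31 and 36.3 in eTreg but went from 1.28 and 2.59 in Tnaive to 83.6 and 114 in Teff (difference -3.68, limma adjusted p = 0.00032). It was also smaller at a Rb1 peak 9.42 kb to the right of the body, already at 107 and 100 in cTreg and at 97.5 and 122 in eTreg, while it rose from 2.55 and 6.48 to 43.5 and 45 in conventional cells (difference -3.06, limma adjusted p = 0.00019). The Ccnd2 call was lost with edgeR (3.55) and without eTreg 1, cTreg 2, Tnaive 2 or Teff 2. The count fell without any 1 of the 8 libraries except Tnaive 1. In the second table, where these names cover other libraries, it was 0 by limma, with 0 at an unadjusted p under 0.05.

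Lineage, Treg against conventional T cells, was compared in 3 pairs. In cTreg against Tnaive 31 peaks were higher and 7 lower, against 8.8% and 7.82% of all peaks, that is 15.9% and 3.59% of the cell cycle peaks. In eTreg against Teff 23 were higher and 13 lower, against 8.4% and 9.07%, and in wild-type Treg against Tconv 26 were higher and 11 lower, against 10.1% and 9.92%. The cyclin D and G1 kinase genes held 19 of the 31, 14 of the 23 and 16 of the 26, and Cdk6 alone 19, 12 and 13. Of the cTreg peaks 16 of 31 (51.6%) were higher in eTreg too (69.6% of 23), pairs that share no libraries. In the second table the central and effector pairs are other libraries, and limma called 0 peaks in each, with 2 in each at an unadjusted p under 0.05. The wild-type pair, the same libraries in both tables, gave 58 there (47 higher and 11 lower). The eTreg count fell from 36 to 21 without eTreg 1, and to 22 without Teff 1 or Teff 2.

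There were 15 peaks higher in Treg in all 3 pairs, 11 of them at Cdk6 and 1 each at Ccne1, E2f2, E2f3 and Rb1, and 2 were lower in all 3, at Mcm3 and Rb1. The E2f2 peak is the one whose sequence is printed above, at chr4:136180264-136180664. It was at 233 and 218 in cTreg, 275 and 338 in eTreg, 121 and 110 in Tnaive, 170 and 132 in Teff, 287 and 284 in wild-type Treg and 108 and 134 in Tconv. Every Treg library was above every conventional one, with differences of 0.96 (SE 0.19, limma adjusted p = 0.00046), 1.02 (limma adjusted p = 0.00025) and 1.24 (limma adjusted p = 1.7e-05), and it was the only promoter peak called in these 3 pairs. BATFKO Treg were at 287 and 312.

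The E2f3 peak 50.7 kb upstream was at 100 and 111 in cTreg, 217 and 181 in eTreg, 142 and 156 in wild-type Treg, but 14 and 5.18 in Tnaive, 57.5 and 49.9 in Teff and 19.6 and 15.9 in Tconv. Treg were therefore 3.66 to 11.1-fold above their conventional partners. The Rb1 peak 9.42 kb to the right was at 74.5 and 89.8 in wild-type Treg and 9.8 and 18.2 in Tconv, and its largest difference was between cTreg and Tnaive (4.34, SE 0.34, limma adjusted p = 1e-10). The Ccne1 peak 18.8 kb downstream of the start was smaller in range, at 88.9 and 93.7 in cTreg against 46 and 60.9 in Tnaive.

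The Mcm3 peak lower in Treg lies at chr1:20825031-20825431, 4.92 kb upstream of the start of this helicase subunit gene, with Il17f, a cytokine gene of Th17 cells, as the next gene at 39756 bases. It was at 140 and 184 in cTreg and 112 and 125 in eTreg, but at 745 and 732 in Tnaive and 442 and 353 in Teff, and at 136 and 104 in wild-type Treg against 536 and 584 in Tconv. Conventional cells were 3.32 to 4.67-fold higher (differences of -2.2, -1.73 and -2.22, the last with limma adjusted p = 1.8e-08). The Mcm3 promoter peak itself was not called in any of the 3 pairs.

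**Figure D3:**
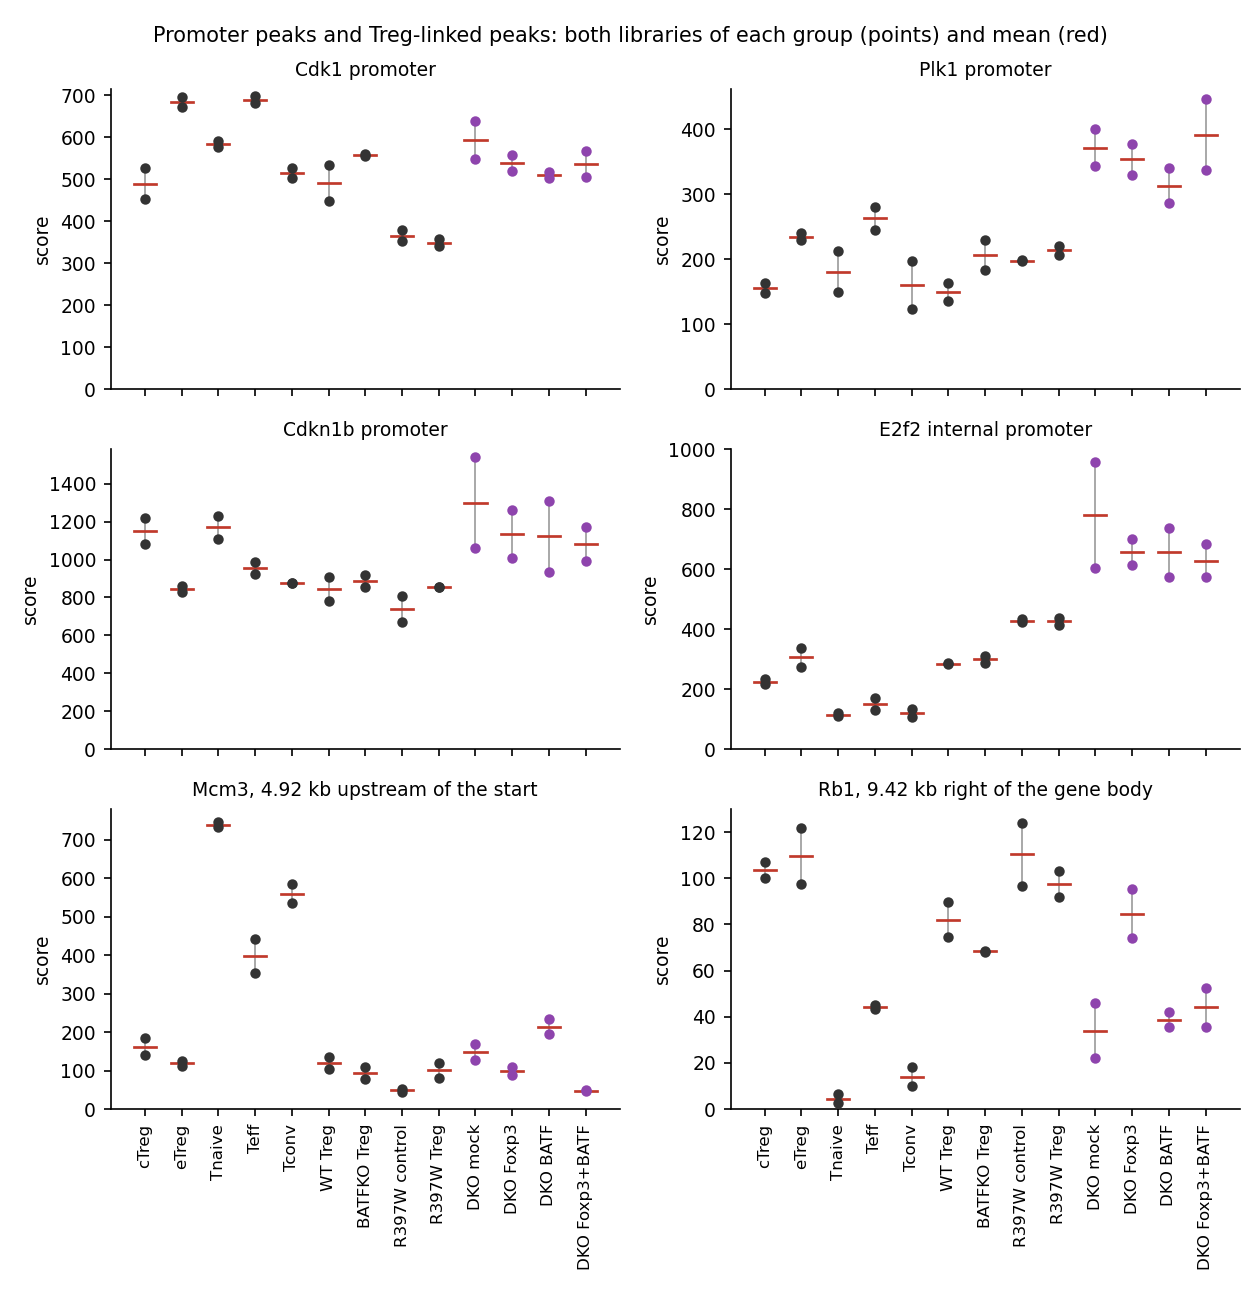
Scores (y, linear from 0) of both libraries (points) and their mean (red line) in all 13 groups for the promoters of Cdk1, Plk1, Cdkn1b and E2f2 (internal start), the Mcm3 peak 4.92 kb upstream and the Rb1 peak 9.42 kb to the right. The E2f2 and Rb1 peaks are higher, and the Mcm3 peak lower, in cTreg and eTreg than in Tnaive and Teff.

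Cdk6, which also had the most peaks, had more calls than any other of the 37 genes, at 27 of its 29 peaks and 106 calls over the 10 comparisons. Ccnd2 had 27 calls from 17 peaks, and Rb1, Rbl2 and E2f3 had 26 each from 13, 8 and 15 peaks. The matching share over all peaks was not computed, so the 27 of 29 cannot be set against a background. Along Cdk6 the peaks fell into stretches, which were marked out after their values were seen and are described without a test. The last stretch, 11 peaks 134 to 173 kb downstream of the start, was higher in cTreg than Tnaive at 11 of 11 peaks (changes of 1.2 to 4.22, median 2.26), in wild-type Treg than Tconv at 10 and in eTreg than Teff at 9. The same 11 peaks also rose from Tnaive to Teff (median 1.79), and 6 of them from cTreg to eTreg. The first stretch, 9 peaks 0.618 to 39.9 kb downstream, rose with the effector step instead, at 7 peaks in conventional cells and 6 in Treg (1 fell), with 3 higher in cTreg than Tnaive. The middle stretch, 7 peaks at 77.1 to 123 kb, had 4 higher in cTreg than Tnaive and 1 rising and 2 falling from cTreg to eTreg.

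**Figure D4:**
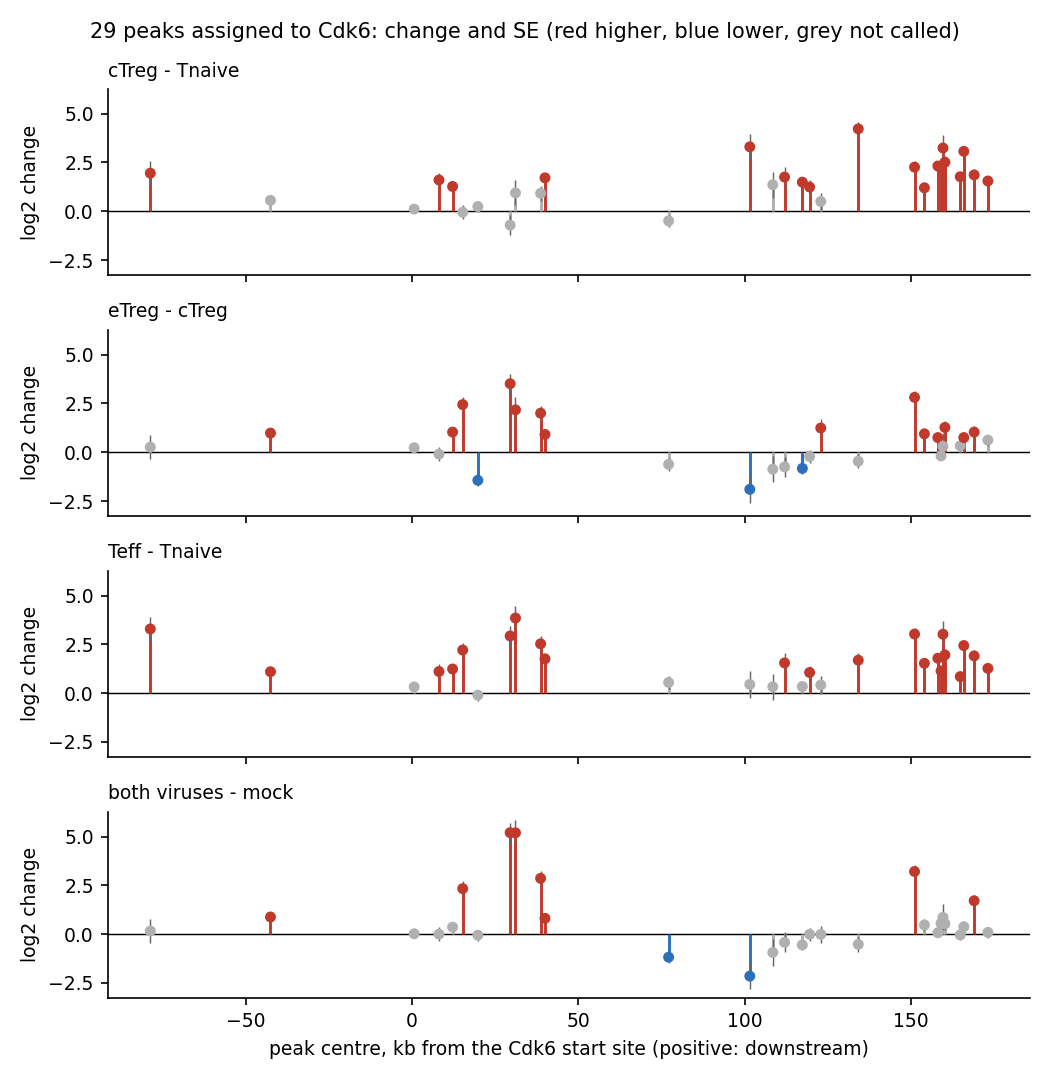
Log2 change with its SE (y) of the 29 peaks assigned to Cdk6, by distance of the peak centre from the Cdk6 start in kb (x), in 4 comparisons (panels). Called peaks are red (higher) or blue (lower). The 11 peaks at 134 to 173 kb are all higher in cTreg than Tnaive, while with both viruses in DKO cells the highest value is at 29.5 kb.

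Within the last stretch, the peak at 151 kb (chr5:3494679-3495079) was at 48.9 and 45.2 in cTreg, 335 and 337 in eTreg, 15.3 and 5.18 in Tnaive and 69.7 and 94.9 in Teff. It thus rose at the effector step in both lineages, by 2.81 (limma adjusted p = 8.3e-08) and 3.03, and was higher in Treg at both stages, by 2.26 and 2.03. A neighbour at 166 kb was at 71.1 and 84.9 in cTreg against 7.66 and 9.07 in Tnaive, 8.42-fold (3.07, limma adjusted p = 5.1e-10). In the first stretch the peak at 29.5 kb was at 7.11 and 2.2 in cTreg, 63.2 and 51.5 in eTreg, 10.2 and 5.18 in Tnaive and 69.7 and 55.8 in Teff, a rise of 3.51 and 2.93. A peak at 77.1 kb was lower in Treg instead, at 25.7 and 32.7 in wild-type Treg and 118 and 75 in Tconv (-1.66). It was lower in eTreg than Teff too (-1.66), as was 1 peak of the first stretch, but was not called lower in cTreg than Tnaive.

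Loss of BATF lowered 6 of the 195 peaks in Treg (3.08%, against 1.43% of all peaks lower) and raised none by limma or edgeR, against 0.062% higher, with 9 higher at an unadjusted p under 0.05. All 6 were among the peaks that rose from cTreg to eTreg (100% of the 6 and 13.6% of the 44). The matching share over all peaks was not computed, so this overlap does not set the cell cycle genes apart. They lay at Cdk6 (2), Ccnd2, Rb1, E2f7 and E2f3, and the 30 promoter peaks had 0 calls by limma or edgeR, with 1 at an unadjusted p under 0.05, where limma called 0.31% of the promoter window peaks of all genes. The G2 and mitosis genes also had 0 calls by limma and edgeR, with 2 of 23 at an unadjusted p under 0.05.

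The Ccnd2 peak lies at chr6:127215976-127216376, 63.8 kb to the right of the gene, with the next gene, Tigar, at 106423 bases. It was at 79.4 and 42.9 in wild-type Treg and 8.86 and 12.6 in BATFKO Treg, a fall of 2.36 on the log2 scale (SE 0.37, limma adjusted p = 0.00016) or 5.13-fold, while Tconv were at 24.5 and 18.2 and the eTreg and cTreg libraries at 117 and 118 against 16 and 13.2. The Cdk6 peak at 151 kb was at 164 and 107 in wild-type and 29.3 and 39.2 in BATFKO Treg (-1.94, SE 0.33, limma adjusted p = 0.00056), near the 26.1 and 22.7 of Tconv. The Cdk6 peak at 29.5 kb was at 24.4 and 24.5 against 3.32 and 6.31 (-2.18, limma adjusted p = 0.021), and its fall and that at 151 kb were the only calls among the 29 Cdk6 peaks.

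The Rb1 peak 14.1 kb to the right was at 70.9 and 66.3 in wild-type and 26 and 25.3 in BATFKO Treg (-1.39, SE 0.28, limma adjusted p = 0.0046). The E2f7 peak 28 kb upstream was at 53.8 and 32.7 against 3.87 and 5.05 (-2.98, limma adjusted p = 0.0059), and the E2f3 peak 36.6 kb upstream at 61.1 and 39.8 against 9.41 and 8.84 (-2.31, limma adjusted p = 0.016). In all 6 both knockout libraries were below both wild-type ones. The count was 1 without wild-type Treg 1, where the Ccnd2 call remained and that of the Cdk6 peak at 151 kb was lost, and 3 without BATFKO 1. The E2f3 and E2f7 calls were among those lost without BATFKO 1, and the Rb1 and E2f3 calls were lost without BATFKO 2. After quantile scaling it was 10, with 2 higher and 8 lower. Marker sums of the T cell and Treg list were 9920 to 10700 in wild-type and 8190 to 9330 in BATFKO Treg. Those of the CD8 and NK list were 1680 to 1740 against 1890 to 2100, of the myeloid list 667 to 719 against 571 to 606, and of the B cell list 611 to 739 against 542 to 583. None of these ranges overlapped, and their part in these changes was not tested.

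**Figure D5:**
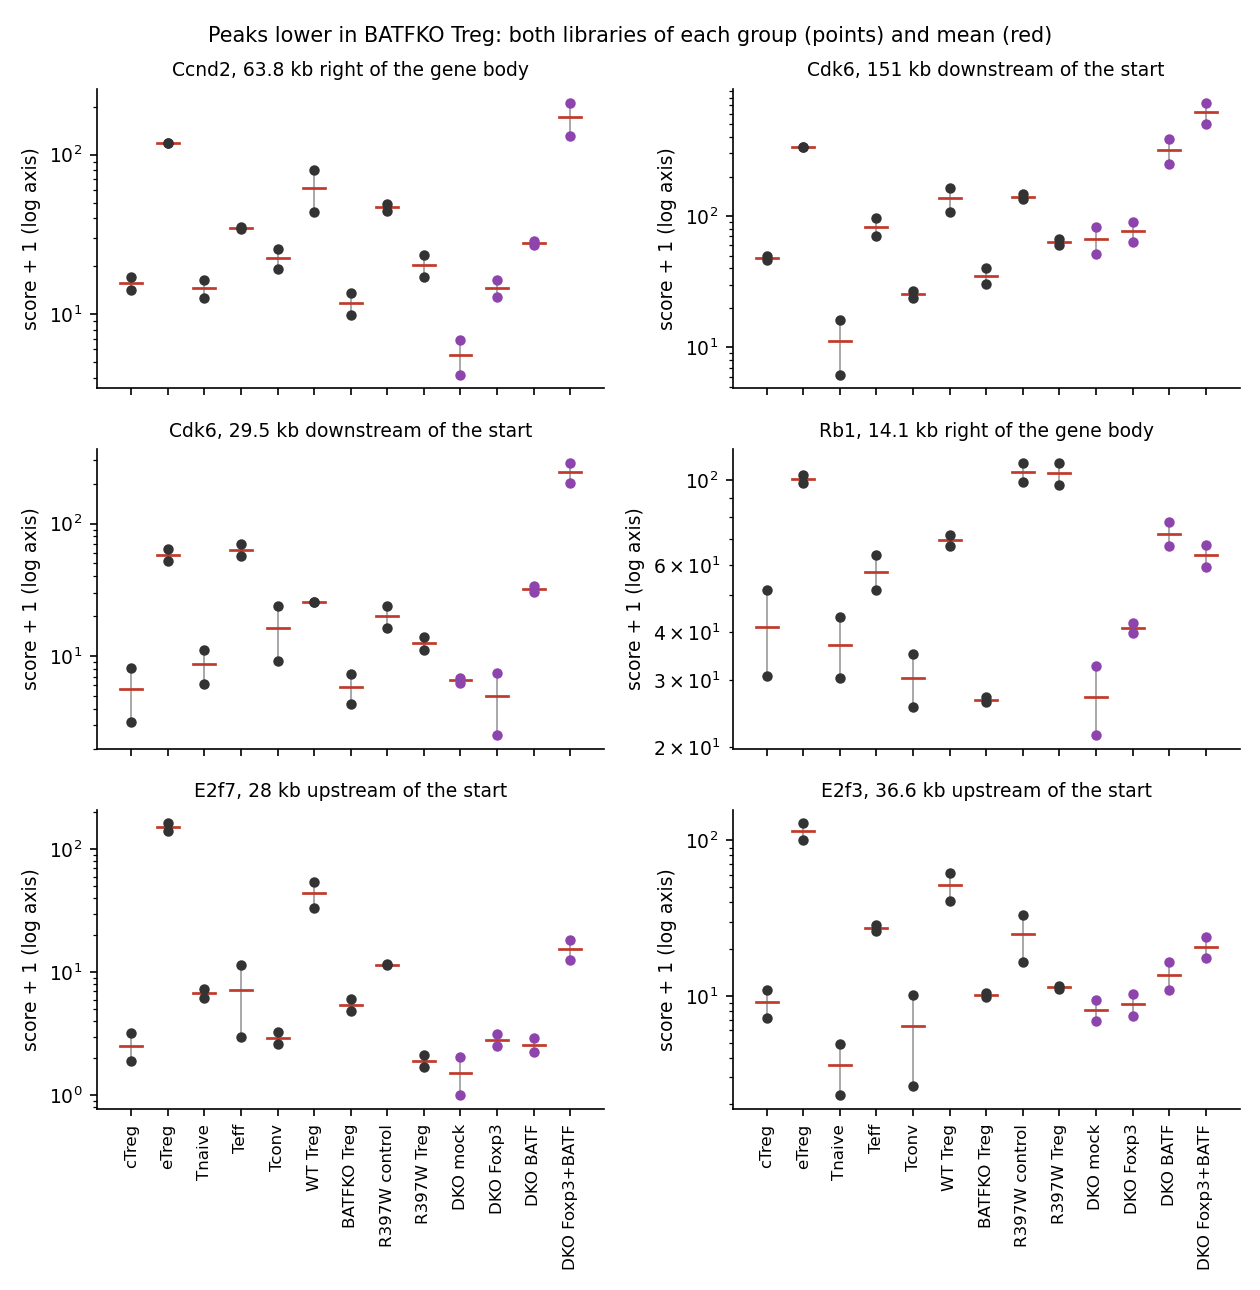
Scores plus 1 (y, log axis) of both libraries (points) and their mean (red line) in all 13 groups for the 6 peaks lower in BATFKO Treg: Ccnd2 63.8 kb right of the body, Cdk6 at 151 and 29.5 kb, Rb1 14.1 kb right, E2f7 28 kb and E2f3 36.6 kb upstream. In each panel eTreg is above cTreg, BATFKO below wild-type Treg, and for the DKO groups (purple) the cells with both viruses are above mock.

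The R397W mutation, a change in the forkhead domain of Foxp3, moved 4 peaks, 1 higher (against 0.776% of all peaks) and 3 lower (against 1.85%). The Mcm3 peak 4.92 kb upstream was at 52.5 and 45.5 in the controls and 81 and 120 in R397W Treg, a rise of 1 (SE 0.22, limma adjusted p = 0.01). Conventional cells were above Treg at this peak too, but those pairs were made by ATAC-seq, so the levels were not compared. The E2f7 peak 28 kb upstream was at 10.5 and 10.7 against 1.13 and 0.706 (4 reads), a fitted fall of 2.61 (limma adjusted p = 0.018). The E2f3 peak 50.7 kb upstream was at 69.9 and 74.9 against 32.6 and 32.5 (-1.13, limma adjusted p = 0.039), and the Cdk6 peak at 158 kb, at 185 and 152 against 99.6 and 87.9, was at the threshold (-0.84, limma adjusted p = 0.05). Without any 1 of the 4 libraries limma left 0 or 1 calls, with 14 to 18 at an unadjusted p under 0.05. Summed scores were 2490 to 2870 in controls and 3000 to 3130 in R397W Treg for the CD8 and NK list, 1000 to 1050 and 801 to 939 for the myeloid list and 599 to 614 and 511 to 549 for the B cell list, and their part in the calls was not tested. edgeR called 16, with 4 higher and 12 lower, and requiring a mean score of 20 gave 2 higher and 2 lower. The second table's R397W pair, which is cTreg against eTreg here, gave 67, with 28 higher and 39 lower.

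In DKO cells each virus was compared with the same mock libraries, so the 3 comparisons share them. Foxp3 alone raised 4 peaks and lowered 1 (against 1.01% and 0.814% of all peaks), 3 of the 4 at pocket protein genes. The Rbl2 peak 3.92 kb into the gene went from 9.49 and 2.93 in mock to 29 and 23 (2.06, SE 0.32, limma adjusted p = 0.00071). The Rb1 peak 9.42 kb to the right, high in Treg, went from 22.1 and 45.9 to 74.2 and 95.2 (1.37, limma adjusted p = 0.033). The Cdk6 peak at 77.1 kb went from 115 and 112 to 43 and 55.3 (-1.2, limma adjusted p = 0.045). It was lower in Treg in the wild-type and effector pairs but was not called lower in the central pair. With 1 library left out its change ran from -1.03 to -1.38, and each time the call was lost. The count was 3 without mock 1 or mock 2 and 2 without the second Foxp3 library, and after quantile scaling it was 2, both higher, with the Rb1 and Cdk6 calls lost (1.18 and -1.02).

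BATF alone raised 10 peaks and lowered 1 (against 3.2% and 0.291% of all peaks), 8 of the 10 at cyclin D and G1 kinase genes, 6 of these at Cdk6. Of the 6 peaks that fell in BATFKO Treg 4 rose here (66.7% of the 6 and 40.0% of the 10), at Ccnd2, Rb1 and Cdk6 (2). The Ccnd2 peak 63.8 kb to the right went from 3.16 and 5.87 in mock to 26 and 27.8 (2.38, SE 0.37, limma adjusted p = 6.5e-05). The Cdk6 peak at 151 kb went from 82.2 and 50.8 to 249 and 387 (2.24, limma adjusted p = 3.7e-05), that at 29.5 kb from 5.27 and 5.87 to 29.7 and 32.6 (2.29, limma adjusted p = 0.0065), and the Rb1 peak 14.1 kb to the right from 31.6 and 20.5 to 76.7 and 66.2 (1.45, limma adjusted p = 0.0014). The one that fell was 3.53 kb upstream of Cdkn1b, from a mean of 82.4 to 45.8 (-0.89, limma adjusted p = 0.031). The Rb1 call was lost without mock 2 and the Cdkn1b call with edgeR (-0.83). The count of 11 was 6 without mock 2 or without the second BATF library, and 7, all higher, after quantile scaling.

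With both viruses 26 peaks rose and 12 fell, against 12.9% and 10.5% of all peaks, or 13.3% and 6.15% of the cell cycle peaks. The cyclin D and G1 kinase genes had 14 rising and 5 falling (Cdk6 8 and 2, Ccnd3 2 and 3, and Ccnd2 4 rising), and the pocket proteins 9 and 2. The Ccnd2 peak 63.8 kb to the right reached 130 and 211 (4.96, SE 0.37, limma adjusted p = 4.3e-11), 31.2-fold above mock. The Cdk6 peak at 29.5 kb reached 203 and 286 (5.2, limma adjusted p = 9.7e-09), the Rbl2 peak 87.4 and 117 (3.99, limma adjusted p = 1.5e-10), and a Ccnd3 peak 10.6 kb downstream of the start 175 and 248 from 38 and 33.2 (2.52, limma adjusted p = 6.1e-07). The E2f7 peak 28 kb upstream, also lower in BATFKO Treg but without a call for BATF alone, rose from 1.05 and 0 (1 read) to 11.7 and 17.3 (fitted change 3.41, limma adjusted p = 0.00012). In all, 5 of the 6 peaks lower in BATFKO Treg (83.3%, and 19.2% of the 26) rose with both viruses.

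Other peaks at replication and mitosis genes moved with both viruses too. The Mcm3 peak fell to 46.6 and 48.4 from 128 and 170 in mock (-1.61, SE 0.22, limma adjusted p = 2.2e-06). A peak 13.6 kb into Rbl1 (p107, the pocket protein of dividing cells) rose from 31.6 and 28.3 to 105 and 107, and the peak beyond the end of Top2a from 39 and 26.4 to 185 and 216 (2.6, limma adjusted p = 0.00047). A weak peak 12.4 kb into Mki67 fell from 40.1 and 26.4 to 1.94 and 4.61 (-3.05, limma adjusted p = 0.0018). The Cdkn1b peak 3.12 kb upstream fell from 92.8 and 82.1 to 48.5 and 51.8 (-0.79), as it did at the effector step. The promoter peaks had 0 calls by limma with any virus, with 0, 1 and 2 of 30 at an unadjusted p under 0.05 for Foxp3, BATF and both, and edgeR called 0, 0 and 1. Over all genes limma called 0.395%, 0.556% and 7.58% of the peaks on promoter windows, so few calls among 30 is near the background.

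Whether both viruses together gave more or less than the sum of their separate log2 changes was tested as a departure from additivity. It was called at 2 peaks, 1 above the sum (against 0.586% of all peaks) and 1 below (against 0.506%). The Cdk6 peak at 29.5 kb was above it, at 6.45 and 1.53 with Foxp3 alone and 29.7 and 32.6 with BATF alone against 203 and 286 with both (departure 3.51, SE 0.73, limma adjusted p = 0.017). The Mcm3 peak was below it, at 89.3 and 109 with Foxp3, 194 and 234 with BATF and 46.6 and 48.4 with both (departure -1.57, SE 0.31, limma adjusted p = 0.014). Without the second Foxp3, BATF or double-virus library limma called 1, 0 and 1 peaks, with 15, 28 and 14 at an unadjusted p under 0.05, and with 5 in place of 1 added to the scores the count was 4, with 3 above and 1 below. The Mcm3 call was lost without mock 1 too (-1.36, limma adjusted p = 0.055), where both calls left were above the sum.

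A further 56 cell cycle genes (other cyclins, checkpoint, replication, centromere and E2F partner genes) were counted for context, of which all but Rrm2 had a peak, 198 in all. From cTreg to eTreg 46 of these rose and 19 fell (23.2% and 9.6%, against the 19.7% and 17.4% of all peaks), and from Tnaive to Teff 42 and 30 (21.2% and 15.2%, against 20.7% and 19.6%), so the rising shares are near the background. A peak near Gins1, a replication fork subunit gene, went from a mean of 6.63 in cTreg to 298 in eTreg (5.35), and one near Lin54, a subunit of the complex that holds mitotic genes silent, from 11.9 to 231 (4.23). A peak near Myc, the growth regulator, rose with both steps, to a mean of 240 in eTreg from 19.1 (3.58) and to 129 in Teff from 7.73 (3.87). In the 3 lineage pairs, in the order wild-type, central and effector, 24, 14 and 17 were higher (12.1%, 7.07% and 8.59%, against 10.1%, 8.8% and 8.4% of all peaks) and 18, 14 and 9 lower (9.09%, 7.07% and 4.55%, against 9.92%, 7.82% and 9.07%). A peak near Cenpf, a kinetochore gene, was lower in Treg in all 3 (-3.27, -2.71 and -2.44), and another near Myc higher in all 3 (2.41, 1.46 and 2.02). In BATFKO Treg 1 rose and 2 fell (0.505% and 1.01%, against 0.062% and 1.43%), and in R397W 1 rose and 5 fell (0.505% and 2.53%, against 0.776% and 1.85%). The Gins1 peak fell both with BATF loss (-2.07) and in R397W Treg (-2.76). It rose with the BATF virus (2.47) and with both viruses (4.68, to a mean of 214). With the Foxp3 virus 1 peak was called (0.505%, against 1.01% higher over all peaks), with BATF 3 (1.52%, against 3.2%), all of them higher, and with both 19 rose and 19 fell (9.6% each, against 12.9% and 10.5%).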

How the data were processed

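Each library is 1 ATAC-seq sample, and the deposited signal value is the authors' normalised peak score per peak and library, from a table of 69316 peaks in mm10. Per the submitters' processing notes, the tools were edgeR 3.36.0 or 3.38.4, DiffBind 3.0.15 or 3.4.11, MACS2 2.2.7.1 and Bowtie2 2.4.1, with no role stated for any of them. Every deposited score was a whole multiple (within 0.02 of a read) of 1 read's worth in its library, so reads were recovered. Genes are protein-coding genes of the RefSeq table, joined with bedtools 2.31.1. RefSeq coordinates and promoter windows are on GRCm38.p6, the assembly of mm10. Scores were analysed as log2(score + 1) with limma 3.58.1 (trend and robust, R 4.3.3), 13 groups of 2 libraries, 13 residual degrees of freedom, and Benjamini-Hochberg adjustment over all peaks. On simulated reads for eTreg against cTreg (69316 peaks), 54 of 100 peaks changed 2-fold and 100 of 100 changed 4-fold were recovered, with 15 false calls. The changed peaks were drawn from those above the median mean score and all others were left unchanged, so recovery at weaker peaks was not measured. Alternatives were quantile scaling, adding 5, a mean score of at least 20, edgeR 4.0.16 on recovered reads, a replicate block, the 22-library table, and leaving out each library. Named per comparison were up to 12 called peaks, 1 per gene by smallest p, with promoter peaks, and up to 4 of the wider list. The other peaks named were chosen after their values were seen. The 37 genes, the lists and the markers were chosen with earlier results of these data known.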

Additional observations from a re-analysis of the deposited data

Results flagged for a closer look

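At 14 peaks the change from resting to effector cells differed between Treg and conventional cells by limma's test of the difference itself, in log2 units of score plus 1 and adjusted over all 69316 peaks. The difference was positive at the E2f7 peak 28 kb upstream (6.16, SE 0.88) and the Ccnd2 peak 67.2 kb to the right (3.16, SE 0.75), where eTreg held the highest scores. It was negative at 4 Cdk6 peaks, at 166 kb (-1.68), 134 kb (-2.15) and 159 kb (-1.33) downstream and 78.7 kb upstream (-3.03), at the Rb1 peak 9.42 kb to the right (-3.06) and a Rb1 peak in the body (-1.49), and at the Rbl2 peak 18.6 kb into the gene (-3.68). It was also negative at the E2f3 peaks 48.7 kb (-2.09) and 50.7 kb (-1.6) upstream, the E2f8 peaks 19.1 kb (-1.95) and 17 kb (-1.53) upstream, and a Ccnd3 peak 4.9 kb downstream of a start (-1.28). At this Ccnd3 peak the score was 204 and 160 in cTreg, 89.7 and 64.4 in eTreg, 203 and 203 in Tnaive and 239 and 184 in Teff, so that it was low in eTreg among the 4 groups. Its call was lost without eTreg 2, cTreg 1, Teff 1 or either Tnaive library. The E2f3 call at 48.7 kb was lost without eTreg 1, cTreg 2, Tnaive 2 or Teff 2, and the Cdk6 call at 166 kb without eTreg 2. The E2f8 call at 19.1 kb was lost without any single library except Tnaive 1. In DKO cells both viruses together departed from the sum of their separate changes at the Cdk6 peak 29.5 kb downstream (3.51, SE 0.73) and the Mcm3 peak 4.92 kb upstream (-1.57, SE 0.31). Adjusted p ran from 5.2e-05 to 0.041 by limma.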

How the results depend on the processing

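Of 67 counts of called cell cycle peaks recomputed under an alternative, leaving out libraries aside, 54 stayed within 1.5 times and 13 moved. The 22-library table changes the peaks, the libraries in the fit and their names at once. Its eTreg and cTreg are R397W Treg and R397W control here, its R397W pair is cTreg against eTreg here, and its Tnaive and Teff are not shared. Counts under those names therefore come from other libraries, except for wild-type Treg, Tconv and BATFKO. It gave 10 for eTreg against cTreg (70 in the 26-library table), 11 for Teff against Tnaive (68), 0 for the difference between these steps (14), 58 for wild-type Treg against Tconv (37), 0 for cTreg against Tnaive (38), 0 for eTreg against Teff (36) and 67 for R397W (4), by limma, with 0, 2 and 2 peaks at an unadjusted p under 0.05 where the count was 0. For BATFKO it gave 7 (6). Quantile scaling gave 10 for BATFKO, 2 for the Foxp3 virus (5) and 7 for the BATF virus (11). Adding 5 to the scores gave 7 for R397W and 4 for the departure from additivity (2), and edgeR gave 16 for R397W. With each library left out in turn the counts ran from 48 to 54 for eTreg against cTreg, 57 to 62 for Teff against Tnaive, 6 to 14 for the difference of steps, 26 to 36 for wild-type Treg against Tconv, 27 to 32 for cTreg against Tnaive, 21 to 25 for eTreg against Teff, 1 to 5 for BATFKO, 0 to 1 for R397W, 2 to 4 for the Foxp3 virus, 6 to 12 for the BATF virus, 31 to 38 for both viruses and 0 to 3 for the departure. The lone library left in a group is then assumed to vary like the other groups. The cause of these moves was not tested. The 103 peak changes named by rule were recomputed under the alternatives that keep the 26-library table, not under the other table. They kept their direction in all 498 of these fits, of which 482 stayed past the threshold, and in all 452 fits with a library left out, of which 351 did. Replicate numbers in the titles only name the libraries, and deviations of same-numbered libraries correlated at 0.04 to 0.21. With the replicate block the counts were 72, 72, 16, 37, 39, 37, 6, 5, 13, 39 and 3 in the order above, with R397W left out because no paired fit was made for it. Of the 195 peaks 172 had a mean score of at least 20, and the effect of depth on calls was not tested. The R397W, BATFKO and single-virus counts rest on few calls.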
